A study of Mus musculus with 24 samples.

Results

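The translation initiation and elongation factors were followed in RNA from mouse jejunal crypts. Members were the rows of the deposited table of estimated counts whose gene symbol begins with Eif1 to Eif5, Eef1 or Eef2 and whose mean over the 24 libraries was at least 10 estimated counts. Among the 37620 genes listed, 73 symbols matched, and 66 of them reached that mean. All 66 also passed the edgeR filter on low counts, which kept 16552 genes. The 7 rows under the mean were Eef1a2, the neuronal and muscle form of the elongation factor eEF1A, at a mean of 0.21 estimated counts, Eif2c5, the pseudogenes Eif3s6-ps1, Eif3s6-ps2 and Eif5al3-ps, and second rows of Eif4e3 and Eef2k. The symbol rule also takes in 5 rows named Eif2c1 to Eif2c4, older symbols of the Argonaute genes, whose proteins carry small RNAs and do not start translation.

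Translation of most messages starts when the eIF4 factors bind the cap of an mRNA and unwind its leader, and the small ribosomal subunit, loaded with eIF3, eIF1, eIF1A, eIF5 and the initiator tRNA on eIF2, scans to the start codon. The exchange factor eIF2B recharges eIF2 with GTP; stress kinases phosphorylate eIF2, which then blocks eIF2B. The eIF4E-binding proteins hold the cap-binding protein away from the eIF4G scaffold until the mTOR kinase releases them. During elongation eEF1A brings aminoacyl-tRNAs, the eEF1B subunits recharge it, eEF2 moves the ribosome along, and eIF5A helps at difficult peptide bonds. The crypt is the proliferating compartment of the intestinal epithelium, and rapidly dividing cells make large amounts of protein.

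Polyadenylated RNA was sequenced from 24 mice, with 1 library per mouse and 3 in each of 8 groups, all 5 to 10 weeks old and all given 56 mg/kg tamoxifen into the peritoneum on 3 consecutive days, controls included. The 4 genotypes were Control, NlecKO, in which Nle1, the gene of Notchless, is deleted on induction, ApccKO, in which Apc is deleted in the same way, and ApccKO;NlecKO, the double knockout that lacks both. Jejunal crypts were taken on day 1 or day 2, which is 24 or 48 h after induction. Notchless helps to assemble the large ribosomal subunit, and APC restrains Wnt signalling. The labels name neither the Cre driver nor the alleles of the controls.

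Library totals ranged from 17.9 to 26.5 M estimated counts. Nle1 RNA was at 20.1 to 27.9 CPM in the Control libraries of both days and at 4.81 to 7.30 in NlecKO. It was at 34.2 to 39.9 in ApccKO and at 7.79 to 12.3 in the double knockout, so Nle1 RNA was lower in each library labelled as a Nle1 knockout. Apc RNA, at 112 to 158 CPM throughout, does not check the labels. The 7 crypt epithelium markers summed to 6873 to 10843 CPM, and 8 stromal and endothelial markers to 9.31 to 52.2, with Des, Acta2 and Pdgfra at 0 in some libraries. The 10 enterocyte markers ran from 1964 CPM in a day 2 ApccKO library to 37031 in a day 1 NlecKO library. The preparations thus also held enterocyte RNA, in amounts that differed widely. Immune markers, 10 of 11 in the table, summed to 146 to 1286 CPM. Day 1 ApccKO replicates 2 and 3 and day 1 double knockout replicate 3 stood apart: Gm8730 was at 0.301 to 0.61 CPM there and at 57.3 to 120 in the other 21 libraries, and Lct was at 321 to 476 CPM against 69.8 to 96.2 in the other 3 libraries of these groups. In the order of the submitters' sample codes the Apc-lost libraries sit together, with Apc-intact libraries on either side, so a drift along that order and Apc loss cannot be told apart within a day. In these bulk preparations fewer cells of a type and less RNA per cell cannot be told apart either.

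RefSeq promoters of 51 of the 66 members were at hand, each running from 250 bases before to 50 after an annotated start on GRCm38.p6; the expression values were made on mm9, per the submitters' processing notes. The E-box CACGTG, a palindrome that reads the same on both strands and is bound by MYC family proteins among others, was searched because many members rose together after Apc loss. It stood in a promoter of 12 of the 51 (23.5%), against 8.09% of 27025 genes and 7.15% of 32851 promoters of the same length. Those genes are all that have such a promoter in the reference, whether or not they passed the filter on low counts. They are thus not matched to the members in expression, and the difference was not tested. Windows of 30 bases around the E-box are shown on the strand of each gene with the E-box in capitals. The windows come from members at 3 points of the pathway, the cap-binding complex, elongation and the kinase of eEF2.
Eif4e: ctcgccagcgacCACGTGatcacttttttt
Eif4a1: cgatcgcctccgCACGTGtaaaggtgctgg
Eif4g1: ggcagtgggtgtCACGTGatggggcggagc
Eif4h: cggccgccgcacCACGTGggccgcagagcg
Eif5a: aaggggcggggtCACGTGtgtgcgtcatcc
Eef2: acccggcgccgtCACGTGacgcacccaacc
Eef2k: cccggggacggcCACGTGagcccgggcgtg

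The Eif4e window (chr3:138527028-138527057, plus strand) began its E-box 228 bases before the start, and that of Eif4a1 (chr11:69672595-69672624, minus strand) 189 bases before it. The E-boxes of Eif4g1 (chr16:20672661-20672690, plus strand) and Eif4h (chr5:134639488-134639517, minus strand) lay 54 and 96 bases before their starts. The Eif5a window (chr11:69921443-69921472, minus strand) lay 74 and 185 bases before 2 annotated starts of that gene, the Eef2 window (chr10:81176576-81176605, plus strand) 43 bases and the Eef2k window (chr7:120842788-120842817, plus strand) 31 bases. A match is a description of these letters and neither a binding site nor a cause. On day 1 the E-box was present for 6 of 31 members that rose after Apc loss (19.4%) and 6 of 19 that did not pass the test (31.6%). On day 2 these were 8 of 34 (23.5%) and 4 of 16 (25%). The counts are small and their difference was not tested, and a member that did not pass is not shown to be unchanged. The printed set shows both kinds, since Eif4e, Eif4a1, Eif4h and Eif5a rose on both days, whereas Eif4g1 and Eef2 passed the test on neither.

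Levels between genes are compared in TPM, which divides by transcript length. Eef1a1, the gene of the common eEF1A, had the highest mean over the 24 libraries, 6299 TPM with a range of 4072 to 8292. Eef2 followed at 1727 TPM (1219 to 2323), then the eEF1B subunit genes Eef1b2 and Eef1g at 750 and 738, Eif5a at 725 and the helicase gene Eif4a1 at 556. The ranges of the last 4 overlapped, whereas those of Eef1a1 and Eef2 did not. The lowest member was Eif5a2, the paralogue of Eif5a, at a mean of 0.230 TPM.

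Summed over the 66 members, the level on day 1 was 14207 ± 1481 TPM in Control (mean ± SD, 3 mice), 13068 ± 1934 in NlecKO, 18504 ± 255 in ApccKO and 19857 ± 1119 in the double knockout. On day 2 the sums were 14080 ± 1460, 14141 ± 1308, 19156 ± 1135 and 20014 ± 1268 TPM in the same order. The members thus held 1.42% of all TPM in Control and 1.85% in ApccKO on day 1, and 1.41% and 1.92% on day 2. The highest Control library of day 1 was at 15869 TPM and the lowest ApccKO library at 18330, and on day 2 these were 15746 and 17857. Elongation factors made up most of each sum, 8790 of 14207 TPM in day 1 Control and 12818 of 19857 in the day 1 double knockout. The 13 eIF3 subunits summed to 1738 TPM in day 1 Control and 2398 in day 1 ApccKO, and the 10 eIF4 factors to 1800 and 2322. No test is given for these sums, since 3 mice against 3 cannot reach an exact permutation p below 0.10.

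**Figure D1:**
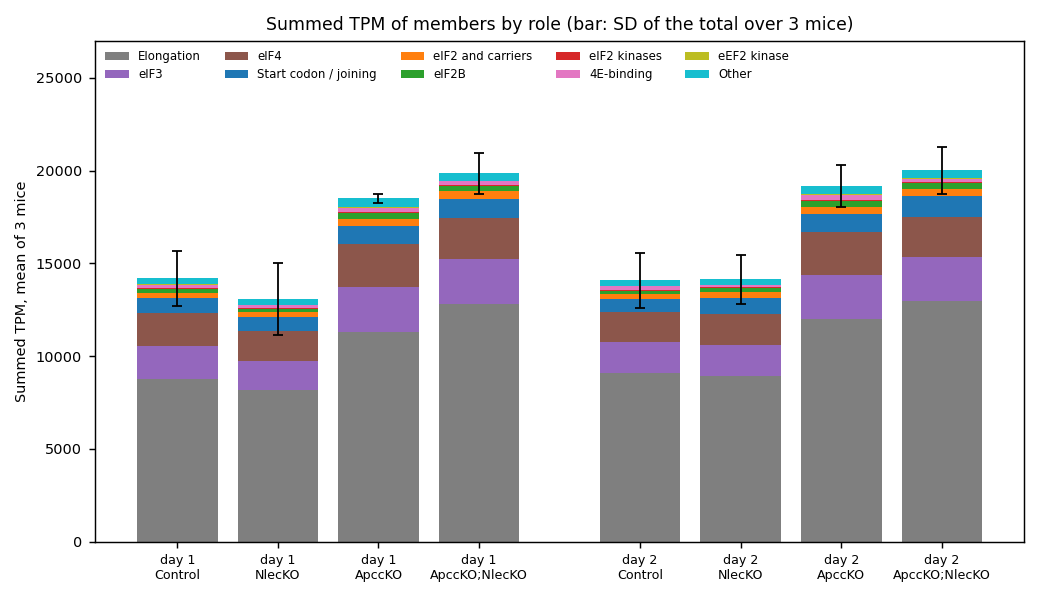
Summed TPM of the 66 members, stacked by role, as the mean of 3 mice in each of the 8 groups; the black line is the SD of the whole sum. The 4 Apc-lost groups stand at 18504 to 20014 TPM and the 4 Apc-intact groups at 13068 to 14207.

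Loss of Apc with Nle1 present went with higher RNA of most members on both days. On day 1, 38 of 66 were higher in ApccKO than in Control and 1 was lower, where 24.7% of all tested genes were higher and 25.0% lower. The median log2 change of the members was 0.28, beside -0.006 for all tested genes. On day 2, 42 were higher and 3 lower, against 29.2% and 29.4% of all tested genes, and the medians were 0.35 and 0.015. The 3 ApccKO libraries lay above all 3 Control libraries for 48 members on day 1 (72.7%), as they did for 29.6% of all tested genes. Without Nle1 the change was seen again: the double knockout exceeded NlecKO in 45 members and was below it in 3 on day 1 (28.2% and 24.4% of all tested genes), with 43 and 1 on day 2 (25.6% and 22.2%).

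These 4 comparisons of Apc loss share no library. In all 4, 28 members were higher, which is 42.4% of the members and compares with 14.9% of all tested genes. They comprised 4 of 5 eIF2B subunits, 10 of 13 eIF3 subunits, Eif1a, Eif1ax, Eif5b, Eif2s1, Eif2d, Eif4a1, Eif4g3, Eif4ebp1, Eef1d, Eef1g, Eif5a, the kinase gene Eif2ak4, and Eef1e1 and Eif2c1. Without the 3 libraries that stood apart, 25 of the 28 passed in all 4, but day 1 ApccKO is then 1 library, assumed to vary like the other groups. Only Eif2ak1 was lower in all 4, whereas 15.6% of all tested genes were. Enterocyte markers moved with Apc loss: the summed CPM of the 10 was 12345 to 27388 in day 1 Control and 2805 to 8925 in day 1 ApccKO, with 8204 to 26372 and 1964 to 3721 on day 2. The 6 goblet cell markers went from 8153 to 8347 down to 4200 to 4558 on day 1, and from 10085 to 10824 down to 2435 to 3221 on day 2. Crypt epithelium markers went up, from 7399 to 7781 CPM to 10308 to 10843 on day 1 and from 7564 to 8005 to 8594 to 9635 on day 2. Enteroendocrine markers went down on both days, to 395 to 416 and 231 to 338 CPM. Immune and tuft cell markers overlapped on day 1. On day 2 immune markers went from 706 to 1286 down to 230 to 370 CPM, and tuft cell markers from 81.9 to 105 down to 23.0 to 29.1. Without Nle1 enterocyte markers moved as well. They were at 26154 to 37031 CPM in NlecKO and 4154 to 13507 in the double knockout on day 1, with 22902 to 30685 and 3429 to 6414 on day 2. Goblet, enteroendocrine and tuft cell markers were also lower, and crypt epithelium markers higher, without overlap on either day. Goblet cell markers, for example, went from 8078 to 8878 down to 4355 to 5805 CPM on day 1. Immune markers were apart on day 2 only. Paneth cell markers overlapped in all 4 comparisons of Apc loss. The part of these lists in the members' changes was not tested.

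**Figure D2:**
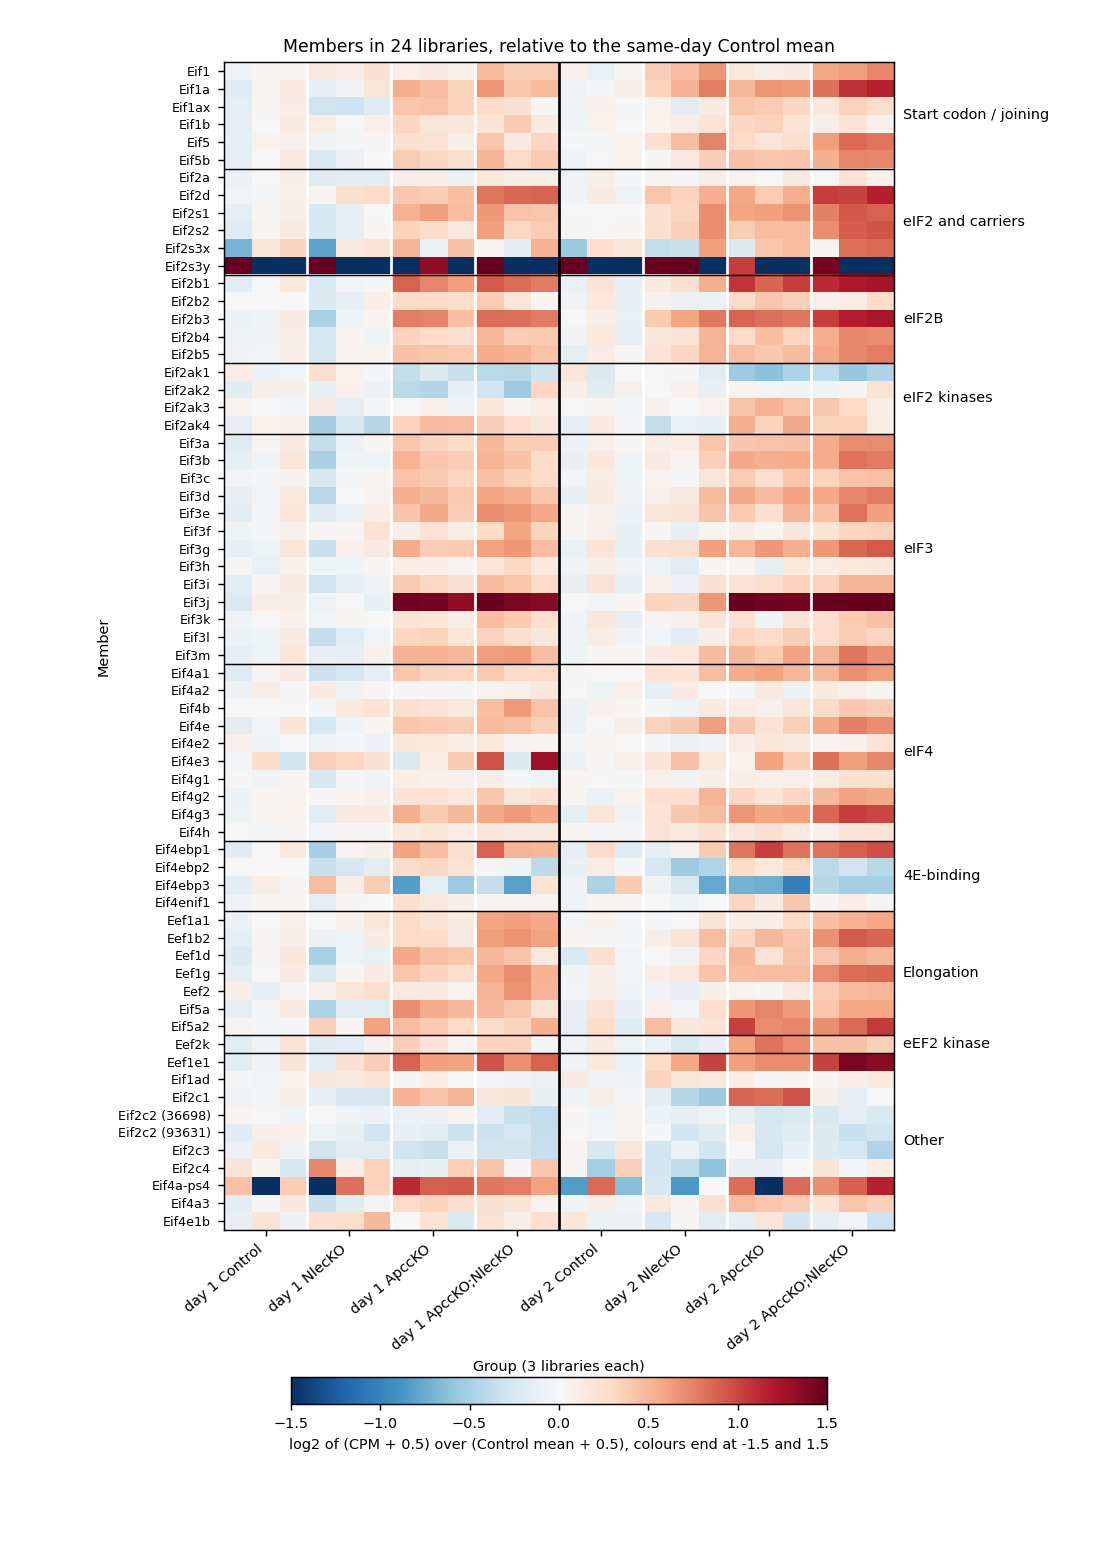
Each row is 1 of the 66 members, grouped by role, and each column 1 of the 24 libraries; colour is log2 of (CPM + 0.5) relative to the same-day Control mean, ending at -1.5 and 1.5. The 12 columns of ApccKO and ApccKO;NlecKO are mostly red, the row of Eif2ak1 is blue there, and Eif2s3y and Eif4a-ps4 vary within groups.

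Every eIF2B subunit gene rose after Apc loss, 5 of 5 on each day, with median log2 changes of 0.42 and 0.45. Eif2b1, which encodes the alpha subunit, was at 48.4, 53.9 and 60.7 CPM in day 1 Control and at 101, 90.9 and 83.4 in day 1 ApccKO. The groups did not overlap, and the log2 change was 0.76 ± 0.11 (SE, adjusted p = 2.3e-05). On day 2 Control was at 44.1, 54.1 and 43.7 CPM and ApccKO at 100, 87.4 and 97.9, a change of 1.01 ± 0.11 on the log2 scale (adjusted p = 3.1e-07). Eif2b3, of the gamma subunit in the catalytic part, changed by 0.68 ± 0.13 and 0.86 ± 0.13, from 14.3 to 16.8 CPM in day 1 Control to 21.0 to 26.2 in ApccKO. Against NlecKO, the double knockout had Eif2b1 higher by 0.93 and 0.87 and Eif2b3 higher by 0.99 and 0.56 on the log2 scale on days 1 and 2.

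Among the 6 genes of eIF2 subunits and other carriers of the initiator tRNA, 2 rose after Apc loss on day 1 and 3 on day 2, and none fell. Eif2s1, of the alpha subunit that the stress kinases phosphorylate, was at 84.6 to 99.0 CPM in day 1 Control and 128 to 143 in ApccKO (log2 change 0.54 ± 0.10, adjusted p = 2.5e-04). Eif2d, whose protein can place tRNA on the small subunit without eIF2, was at 43.6 to 47.4 CPM in Control and 58.2 to 61.7 in ApccKO on day 1, a change of 0.41 ± 0.08. The gamma subunit has an X-linked gene, Eif2s3x, and a Y-linked copy, Eif2s3y, and neither passed the test in any comparison. In the 9 libraries with Y-linked Ddx3y above 1 CPM, Eif2s3y was at 41.6 to 65.1 CPM and Eif2s3x at 152 to 269, with a median of 185. In the other 15, Eif2s3y was at 0 to 0.274 CPM and Eif2s3x at 236 to 419, with a median of 322. Each group held 1 library with Ddx3y, or 2 in day 2 NlecKO, so both genes were spread within every group.

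Of the 6 genes of start codon recognition and subunit joining, 4 rose on day 1 and 5 on day 2. Eif1ax, an eIF1A gene on the X chromosome, was at 78.0, 88.3 and 93.9 CPM in day 1 Control and 116, 117 and 110 in ApccKO (log2 change 0.40 ± 0.09, adjusted p = 7.9e-04). Its paralogue Eif1a changed most on day 2, from 79.1 to 89.6 CPM in Control to 118 to 133 in ApccKO, by 0.60 ± 0.12 (adjusted p = 2.1e-04). Eif5b, which joins the subunits, was higher by 0.51 ± 0.09 and 0.48 ± 0.09 in the double knockout than in NlecKO on days 1 and 2. Eif1, of the factor that guards start codon choice, did not pass the test for Apc loss with Nle1 present (0.09 and 0.12).

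The eIF3 subunits rose together: the same 10 of 13 rose on day 1 and on day 2, with median log2 changes of 0.38 and 0.39. Eif3m, for example, was at 71.0 to 88.3 CPM in day 1 Control and 109 to 112 in ApccKO, a change of 0.51 ± 0.10 (adjusted p = 3.7e-04). Eif3f, Eif3h and Eif3k did not pass on either day, at 0.14, 0.08 and 0.16 on day 1. In the double knockout against NlecKO all 13 passed on each day, these 3 included; whether they differed between the settings was tested by the interaction described further on, in which none passed. Eif3j, the loosely bound subunit, had the largest change of any member, 1.42 ± 0.10 on day 1 and 1.48 ± 0.10 on day 2, but its counts are shared with a copy and are treated last.

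Within the eIF4 group 6 of 10 rose on day 1 and 5 on day 2. Eif4e, the cap-binding protein, was at 87.9, 95.7 and 113 CPM in day 1 Control and at 132, 130 and 128 in ApccKO (0.40 ± 0.10, adjusted p = 0.0021). On day 2 it was at 74.5, 79.1 and 84.2 CPM in Control and 105, 91.4 and 102 in ApccKO, so the groups again did not overlap. Eif4g3, the less abundant scaffold gene, changed by 0.48 ± 0.09 and 0.63 ± 0.09. Eif4g1, the main scaffold gene, ranged only from 802 to 1026 CPM over all 24 libraries and passed in none of the 8 comparisons of 2 groups on a day. The helicase gene Eif4a1 rose by 0.36 ± 0.09 and 0.56 ± 0.09, while its paralogue Eif4a2, at -0.01 and 0.01, passed in no comparison. Eif4e2, at 87.0 to 95.3 CPM in day 1 Control and 96.9 to 103 in ApccKO, sat at the threshold (0.14 ± 0.06, adjusted p = 0.049) and lost the call in 4 of 6 leave-one-out fits.

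Of the 4 genes of proteins that bind eIF4E, 3 rose on each day with Nle1 present and 1 fell on day 2; in the double knockout against NlecKO 1 rose on each day and none fell. Eif4ebp1 was at 23.8, 27.2 and 30.2 CPM in day 1 Control and 41.5, 37.4 and 32.1 in ApccKO, with changes of 0.45 ± 0.17 (adjusted p = 0.031) and, on day 2, 0.90 ± 0.17 (adjusted p = 1.4e-04). Eif4ebp2 was at 115 to 116 CPM in day 1 Control and 134 to 144 in ApccKO (0.27 ± 0.09, adjusted p = 0.019). Eif4ebp3, far lower at 2.45 to 7.50 CPM over all libraries, fell by 0.91 ± 0.28 on the log2 scale on day 2 (adjusted p = 0.0083). Eif4enif1, whose protein carries eIF4E into the nucleus, rose by 0.17 and 0.29.

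The 4 eIF2 kinases did not share a direction. Eif2ak1, the kinase activated when heme is short, was at 73.2, 63.7 and 65.7 CPM in day 1 Control and 52.2, 58.3 and 53.6 in ApccKO. The day 1 groups were apart, and the change was -0.30 ± 0.09 (adjusted p = 0.011). On day 2 the change was -0.55 ± 0.09 (adjusted p = 5.4e-05), and against NlecKO the double knockout stood at -0.48 and -0.40. Eif2ak4, which senses uncharged tRNA, was at 14.6 to 17.1 CPM in day 1 Control and 20.6 to 22.6 in ApccKO, a change of 0.44 ± 0.11 (adjusted p = 0.0029). Eif2ak3, the kinase of the endoplasmic reticulum, was level on day 1 (-0.00 ± 0.08) and higher by 0.46 ± 0.08 on day 2, with Control at 38.1, 38.7 and 37.0 CPM and ApccKO at 51.2, 54.5 and 51.0. Eif2ak2, which responds to double-stranded RNA, did not pass in any comparison; its changes were -0.31 ± 0.15 on day 1 and -0.01 on day 2.

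Of the 7 elongation factors 4 rose on day 1 and 5 on day 2. Eif5a was at 537, 582 and 651 CPM in day 1 Control and 954, 865 and 827 in ApccKO (0.58 ± 0.11, adjusted p = 3.5e-04). On day 2 it was at 461 to 584 CPM in Control and 782 to 832 in ApccKO (0.67 ± 0.11). The abundant Eef1a1 changed less, from 5317, 5681 and 5988 CPM in day 1 Control to 6920, 6552 and 6222 in ApccKO (0.21 ± 0.08, adjusted p = 0.034), and did not pass on day 2 (0.17, adjusted p = 0.079). Eef2 did not pass on either day, at 0.11 and 0.07. Its kinase gene Eef2k was at 45.8, 52.8 and 45.8 CPM in day 2 Control and 72.6, 85.0 and 79.0 in ApccKO, a change of 0.71 ± 0.11 (adjusted p = 2.2e-05), whereas day 1 gave 0.22 ± 0.11 (adjusted p = 0.11). Eif5a2, always at 0.375 to 1.56 CPM, changed by 1.31 ± 0.28 on day 2 (adjusted p = 4.8e-04).

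Of the 10 remaining members, 3 rose on day 1. Eef1e1, whose protein belongs to the complex of aminoacyl-tRNA synthetases despite its symbol, was at no more than 28.1 CPM in Control and at 37.8 to 45.9 in ApccKO (0.71 ± 0.16, adjusted p = 0.0012). Eif4a3, of the exon junction complex, changed by 0.30 ± 0.09. Eif2c1, an Argonaute gene, was at 45.9, 47.5 and 52.1 CPM in day 1 Control and 69.9, 65.4 and 69.4 in ApccKO (0.49 ± 0.10). On day 2 it reached 88.3, 86.7 and 93.8 CPM beside 45.9, 51.3 and 47.2 in Control, 0.90 ± 0.10 on the log2 scale (adjusted p = 2.0e-07). Of the 2 rows of Eif2c2, that with the higher CPM (ENSMUSG00000036698) was at 159 to 169 CPM in day 1 Control and 153 to 170 in ApccKO, without a call, and fell by 0.21 on the log2 scale on day 2 (adjusted p = 0.0076).

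The day 1 count for Apc loss depended on single libraries. Leaving out Control replicate 1, which alone in its group had Ddx3y above 1 CPM, lowered it from 39 members to 25. Among the calls lost were Eif4ebp1, Eef1a1 and Eif2ak1. Without the 3 libraries that stood apart, which leaves 1 ApccKO library, it was 31, of which 28 were among the 39.

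**Figure D3:**
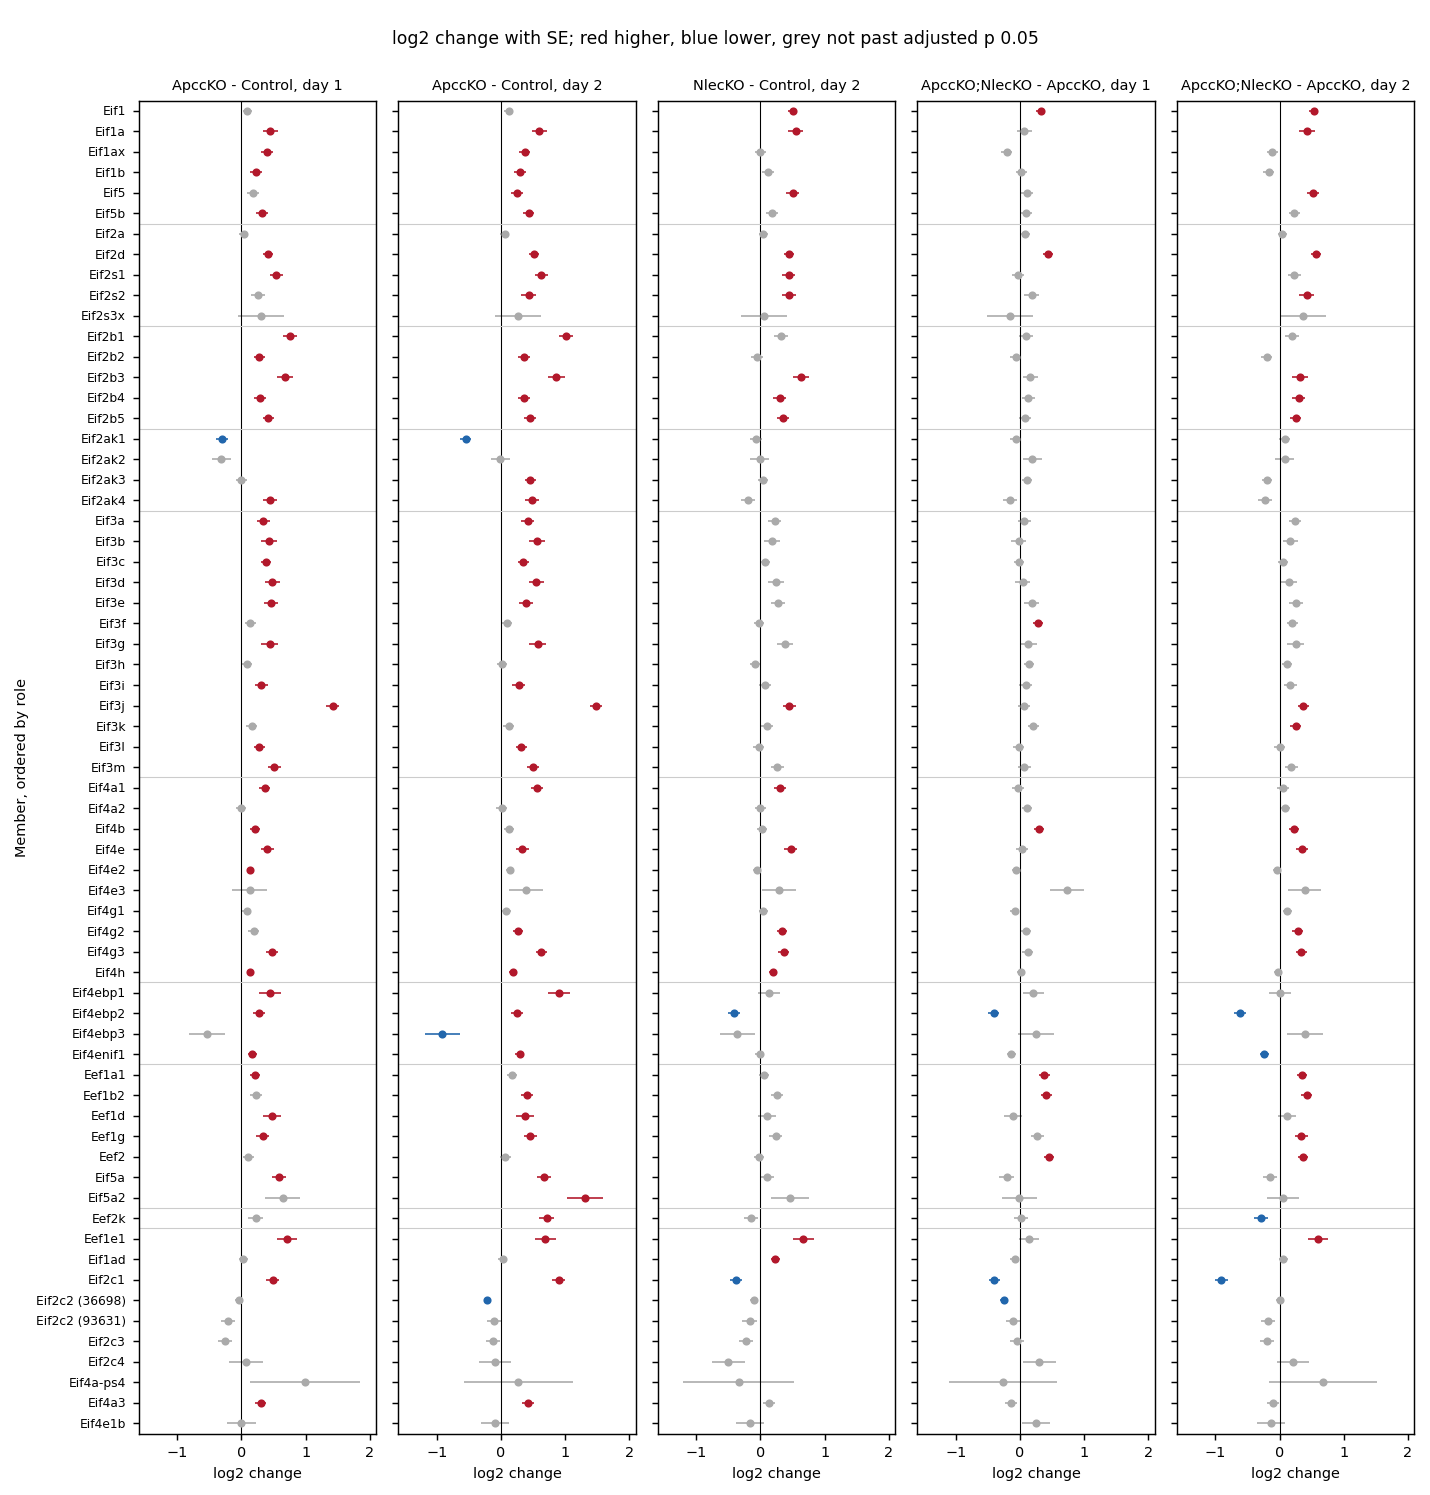
Log2 change with SE for 65 members, ordered by role (Eif2s3y, whose SE exceeds the axis, is not drawn), in 5 comparisons; red is higher, blue lower and grey not past an adjusted p of 0.05. The first 2 panels, Apc loss on days 1 and 2, hold 38 and 42 red points, the other 3 panels, Nle1 loss, 17, 7 and 19.

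Loss of Nle1 with Apc intact left the members without a called change on day 1. None of 66 passed in either direction, where 0.870% of all tested genes were higher and 1.61% lower. These shares are for the adjusted edgeR test, and none is given for unadjusted or DESeq2 counts here or below. Before adjustment 3 members were higher and 7 lower with p under 0.05, and DESeq2 called 1 lower. That gene was Eif2ak4, at 14.6, 16.8 and 17.1 CPM in Control and 11.1, 13.5 and 11.9 in NlecKO. The libraries did not overlap, but edgeR gave -0.41 ± 0.11 with an adjusted p of 0.056. Without Control replicate 1, 3 members passed.

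Moderate rises were called on day 2. In NlecKO 17 members were higher than in Control and 2 lower, beside 7.33% and 8.26% of all tested genes, with median log2 changes of 0.11 and 0.003. Rises were called in 3 of 6 start codon genes, 3 of 6 eIF2 genes, 3 of 5 eIF2B genes and 5 of 10 eIF4 genes. Among eIF3 genes 1 of 13 was called, and of the 7 elongation factors none. The median log2 changes of these last 2 groups were 0.18 and 0.10, so they are not shown to be unchanged. Eif1 was at 265, 236 and 259 CPM in Control and 327, 349 and 402 in NlecKO, well apart (0.50 ± 0.07, adjusted p = 1.4e-04). Eif2d was at 41.2, 46.4 and 40.5 CPM in Control and 57.3, 54.5 and 62.7 in NlecKO (0.44 ± 0.08, adjusted p = 8.7e-04). Eif5, of the protein that triggers GTP hydrolysis by eIF2, was at 269, 270 and 285 CPM in Control and 324, 378 and 461 in NlecKO (0.50 ± 0.10). In Eif5, as in Eif1, the third NlecKO library was the highest.

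Other members named for day 2 were Eef1e1, changed by 0.67 ± 0.16 (adjusted p = 0.0077), Eif2b3 by 0.63 ± 0.13, Eif1a by 0.55 ± 0.12, Eif4e by 0.47 ± 0.10 and Eif2s2, of the beta subunit of eIF2, by 0.45. The 2 members that fell were Eif4ebp2 and Eif2c1. Eif4ebp2 was at 106, 124 and 113 CPM in Control and 95.3, 79.1 and 83.8 in NlecKO (-0.41 ± 0.09, adjusted p = 0.0048). Eif2c1 was at 45.9 to 51.3 CPM in Control and 32.6 to 42.7 in NlecKO (-0.38 ± 0.10, adjusted p = 0.010). The day 2 calls rest on the spread pooled over all 8 groups: a fit to only these 6 libraries called none of the members and 279 of all genes. Leaving out NlecKO replicate 3 gave 9 calls in place of 19. Enterocyte markers summed to 22902 to 30685 CPM in day 2 NlecKO and 8204 to 26372 in Control, with overlap. The 6 enteroendocrine markers did not overlap, at 811 to 971 against 529 to 622 CPM. The part of either list was not tested.

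In crypts without Apc, few members were called for Nle1 loss on day 1. In the double knockout 7 were higher than in ApccKO (10.6%) and 3 lower (4.55%), beside 5.87% and 4.77% of all tested genes. These counts are small and not far from those shares. Of the 7 elongation factors 3 rose, among them Eef2, at 3707, 3721 and 3500 CPM in ApccKO and 4791, 5376 and 4806 in the double knockout (0.45 ± 0.08, adjusted p = 0.0017). Eef1a1 went from 6920, 6552 and 6222 CPM to 8542, 8652 and 8407 (0.38 ± 0.08, adjusted p = 0.0056). Eef1b2 went from 465, 461 and 413 CPM to 587, 610 and 581 (0.41 ± 0.09, adjusted p = 0.0091). The double knockout lay wholly above ApccKO for each of the 3.

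Eif2d, at 59.8, 58.2 and 61.7 CPM in ApccKO, reached 79.1, 82.1 and 82.8 in the double knockout (0.44 ± 0.08, adjusted p = 0.0014). Eif1 changed by 0.32 ± 0.07, Eif4b, which stimulates the helicase, by 0.30 and Eif3f by 0.28. The 3 that fell were Eif4ebp2 (-0.41, adjusted p = 0.0070), Eif2c1 (-0.40, adjusted p = 0.011) and Eif2c2 (-0.25, adjusted p = 0.018). The crypt epithelium markers moved with these calls, from 10308 to 10843 CPM in ApccKO to 8576 to 8872 in the double knockout, and their part was not tested. This day 1 comparison holds all 3 libraries that stood apart. Without them none of the 66 passed, with 33 calls among all genes, but only 1 ApccKO library and 2 of the double knockout then remained. Leaving out ApccKO replicate 3 gave 5 calls, double knockout replicate 3 gave 6, and a fit to only these 6 libraries gave 4.

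On day 2, 19 members were higher in the double knockout than in ApccKO and 4 lower, where 19.5% and 15.4% of all tested genes were; the medians were 0.17 and 0.056. With the stricter filter of 2 CPM in 3 libraries 14 members were higher and 8 lower. The shares of all tested genes under that filter are not given here. These counts thus do not tell a shift of the members from a shift of all genes. Eif1 was at 282, 269 and 277 CPM in ApccKO and 380, 392 and 421 in the double knockout (0.53 ± 0.07, adjusted p = 1.8e-05). Eif2d was at 64.0, 55.9 and 62.7 CPM and then 88.1, 86.8 and 96.8 (0.57 ± 0.08, adjusted p = 1.5e-05). Both groups were again fully apart for these genes of early initiation. Eef2 changed by 0.37 ± 0.08, Eef1a1 by 0.35 and Eef1b2 by 0.42, with Eef1e1 at 0.60, Eif5 at 0.52, Eif1a at 0.43 and Eif2s2 at 0.42.

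The largest decrease was in Eif2c1, from 88.3, 86.7 and 93.8 CPM in day 2 ApccKO to 51.0, 43.9 and 48.4 in the double knockout (-0.91 ± 0.10, adjusted p = 9.2e-07). Control libraries of that day were at 45.9 to 51.3 CPM, so the double knockout overlapped Control. Eif4ebp2 went from 139, 128 and 141 CPM to 86.9, 93.0 and 85.8 (-0.62 ± 0.09, adjusted p = 3.5e-05), below the Control libraries at 106 to 124. Eif4enif1 was lower by -0.24 (adjusted p = 0.0092) and Eef2k by -0.29 (adjusted p = 0.047) on the log2 scale. Several marker lists moved in this comparison. On day 2 the goblet cell markers were at 4998 to 6185 CPM in the double knockout and 2435 to 3221 in ApccKO, the enteroendocrine markers at 381 to 478 and 231 to 338, and the stromal and endothelial markers at 19.6 to 33.6 and 9.31 to 14.8, all without overlap. Crypt epithelium markers were lower, at 7883 to 8427 against 8594 to 9635 CPM, and tuft cell markers slightly higher, at 29.2 to 37.0 against 23.0 to 29.1. Enterocyte markers overlapped, at 3429 to 6414 and 1964 to 3721. The part of these lists in the members' changes was not tested.

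The 2 comparisons of Nle1 loss on day 2 share no library. In both, 13 members were higher (19.7%, beside 4.86% of all tested genes), and 2, Eif4ebp2 and Eif2c1, were lower (3.03%, beside 5.44%). With Apc lost, 6 members were higher on both days (9.09%, beside 5.10%). Eif2d and Eif1 were the 2 members higher in 3 of the 4 comparisons of Nle1 loss. Called changes of both signs occurred in 5 members, a count for which the share of all tested genes is not given. Eif2c1, Eif4ebp2, Eef2k and Eif4enif1 rose with Apc loss and were lower with Nle1 loss in Apc-lost crypts. On each day ApccKO against Control and the double knockout against ApccKO use the same 3 ApccKO libraries. High values in those libraries push these calls in opposite directions, so they are not independent. The other member was Eif1ad. No comparison called Eif2ak2, Eif2s3x, Eif2s3y, Eif4a2, Eif4e3, Eif4g1, Eif2c3, the second Eif2c2 row, Eif4e1b or the pseudogene Eif4a-ps4; these 10 are 15.2% of the members, beside 19.6% of all tested genes.

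**Figure D4:**
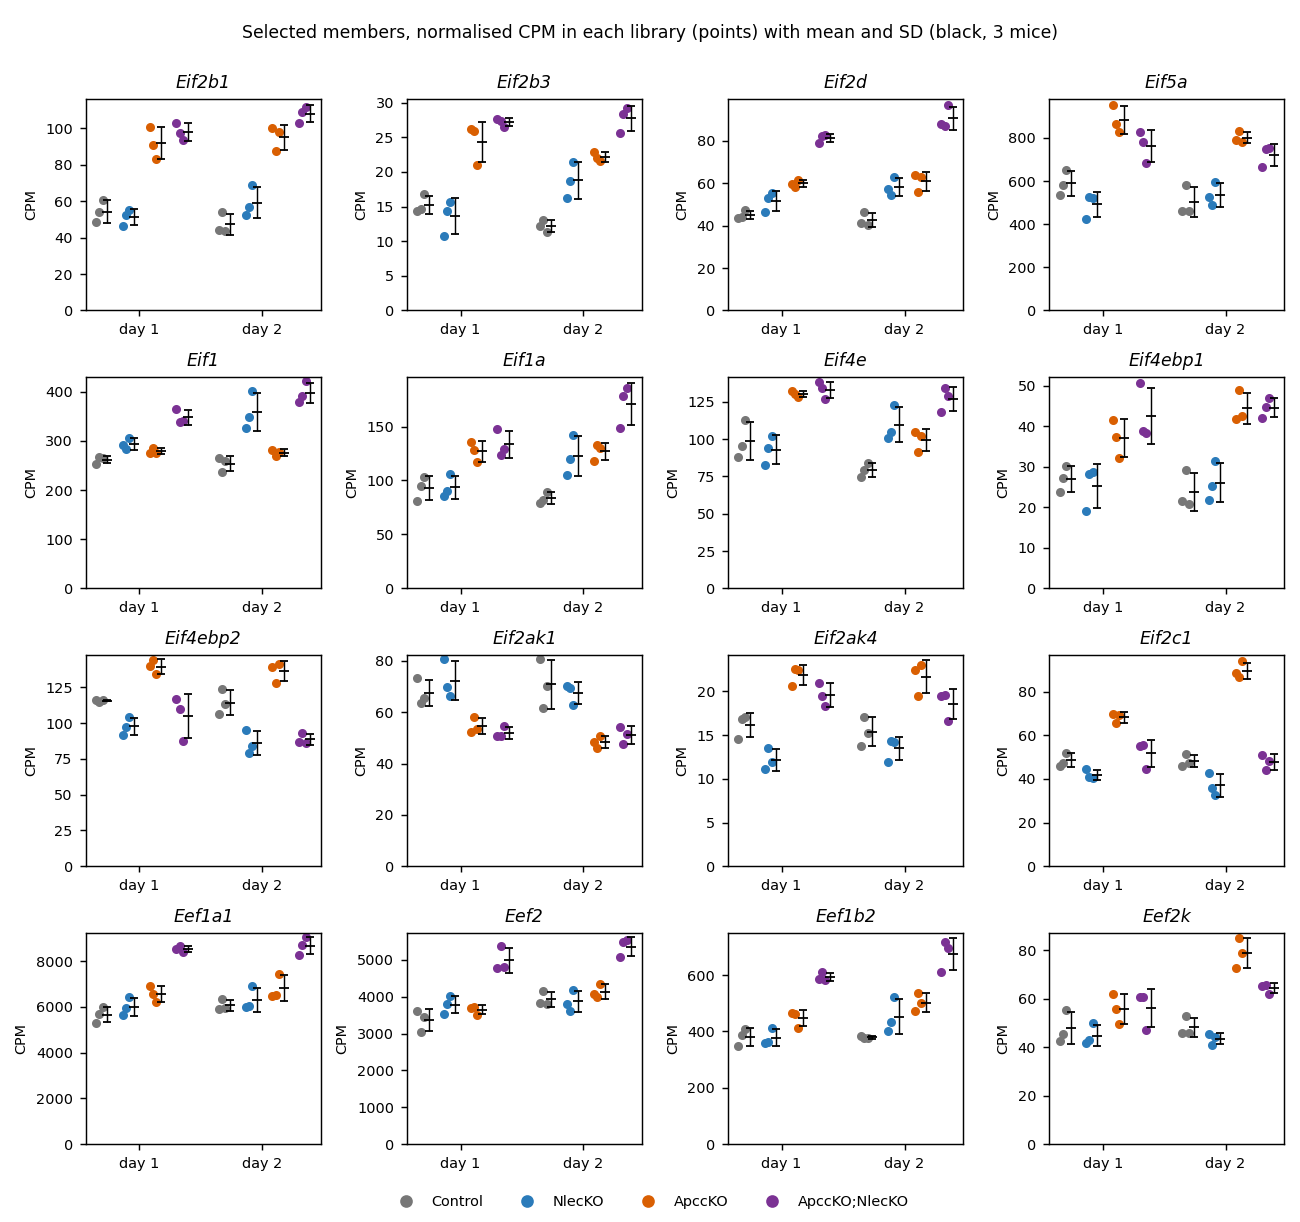
Normalised CPM of 16 members in each library (points, 3 mice per group), with mean and SD in black, on linear axes from 0. Eif2b1 and Eif5a are high in the Apc-lost groups, Eif1 and Eif2d are highest in the double knockout, Eif4ebp2 and Eif2c1 are highest in ApccKO, and Eif2ak1 is low in the Apc-lost groups.

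Whether Nle1 loss acted differently with and without Apc was tested as an interaction. On day 1 none of 66 passed (0.0121% of all tested genes higher, 0% lower); before adjustment 6 were higher and 2 lower with p under 0.05, and DESeq2 called none. On day 2 only Eif2c1 passed, at -0.53 ± 0.13 (adjusted p = 0.027), beside 3.29% higher and 1.95% lower among all tested genes; before adjustment 2 members were higher and 5 lower with p under 0.05, and DESeq2 called Eef2 higher and Eif2c1 and Eif4h lower. The Nle1 effect on Eif2c1 was -0.38 with Apc and -0.91 without, and 7 of the leave-one-out fits lost the call, those without Control 1 or 3, NlecKO 1, ApccKO 1 or 3, or double knockout 2 or 3 of day 2. For Eef2 the day 2 interaction was 0.39 ± 0.12 with an adjusted p of 0.056, from Nle1 effects of -0.02 with Apc and 0.37 without. Eef1a1 gave 0.29 ± 0.11 on each day (adjusted p = 0.63 and 0.16). DESeq2 called the difference for Eef2 (adjusted p = 0.013), as did edgeR with a term for sex (adjusted p = 0.049), so Eef2 lay at the threshold, and for Eef1a1 no difference was shown.

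Between days, members changed little. No member passed in Control (0.109% and 0.0544% of all tested genes higher and lower). Before adjustment 2 members were higher and 15 lower on day 2 with p under 0.05, and DESeq2 called 1. Unadjusted and DESeq2 counts stand here without the share of all tested genes, so no pattern of the members is read from them. None passed in NlecKO either (0.0181% each way), where the unadjusted counts were 16 higher and 2 lower and DESeq2 called 1. In the double knockout none passed (3.46% and 3.04%), with 3 and 2 unadjusted and 1 by DESeq2. In ApccKO 3 rose and 2 fell (5.84% and 5.49%): Eef2k by 0.50, Eif2ak3 by 0.43 and Eif2c1 by 0.39, with Eif2c2 at -0.21 and Eif4e at -0.39 (adjusted p = 0.013). Without the 3 libraries that stood apart none of these 5 passed, but day 1 ApccKO was then 1 library, assumed to vary like the other groups. The changes without them were 0.34 for Eef2k, 0.43 for Eif2ak3, 0.35 for Eif2c1, -0.16 for Eif2c2 and -0.42 for Eif4e, with adjusted p from 0.15 to 0.56.

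The effect of Nle1 loss itself did not differ between days for any member with Apc intact (0% and 0.00604% of all tested genes by adjusted p). Unadjusted, 27 were higher on day 2 and 1 lower, and DESeq2 called 5 higher. The share of all tested genes is not given for such unadjusted or DESeq2 counts, so they have no background to be set against. With Apc lost none passed (0.242% and 0.193%), with 5 and 2 unadjusted and 1 lower by DESeq2. The day 1 and day 2 counts of Nle1 loss, 0 and 19, are thus not shown to differ by a test of single members. For Apc loss 1 member passed (0.526% and 0.604%), the kinase gene Eif2ak3, at 0.47 ± 0.11 (adjusted p = 0.044). That call was lost in 11 of the leave-one-out fits.

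Neighbouring genes of the pathway were counted from lists. Of 23 genes of termination, recycling and other initiation steps, Apc loss raised 13 and lowered 2 on day 1, and 13 and 1 on day 2. These and the next counts for Apc loss stand beside 24.7% higher and 25.0% lower among all tested genes on day 1, and 29.2% and 29.4% on day 2. Pabpc1, the main poly(A)-binding protein, rose from a mean of 1083 to 1597 CPM on day 1 (0.56, adjusted p = 2.2e-04), and Gspt2, of a release factor, from 1.30 to 4.59 CPM. Pdcd4, which inhibits eIF4A, was at a mean of 147 CPM in day 2 Control, 60.0 in ApccKO (-1.29, adjusted p = 2.1e-07) and 61.1 in NlecKO (-1.27, adjusted p = 1.1e-05). Nle1 loss with Apc intact raised 5 and lowered 4 of this list on day 2 (7.33% and 8.26% of all tested genes), with Eif6, of the factor that keeps the large subunit free, at 241 against 179 CPM (0.43, adjusted p = 0.0035).

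Of 8 measured genes that control or read out eIF2 phosphorylation, Apc loss raised 1 and lowered 3 on day 1, and 3 and 3 on day 2, which in a list of 8 is near the shares of all tested genes. With Apc intact, Nle1 loss raised 2 of the 8 on day 2 and lowered none, beside 7.33% and 8.26% of all tested genes. These were Atf4, from 154 to 220 CPM (0.51, adjusted p = 5.5e-04), and Ddit3, from 11.6 to 19.8 (0.77, adjusted p = 0.0017), both transcription factors of the stress response. In Apc-lost crypts Nle1 loss raised 2 of the 8 on day 1, where 5.87% of all tested genes were higher and 4.77% lower. These were Atf4, from 152 to 222 CPM (0.55, adjusted p = 4.6e-04), and Ddit3, from 7.84 to 12.1 (0.63, adjusted p = 0.013). Nle1 loss also lowered Dnajc3, an inhibitor of eIF2 kinases, from 135 to 98.5 (-0.46, adjusted p = 0.0012). On day 2 Nle1 loss raised 3 and lowered none, where 19.5% of all tested genes were higher and 15.4% lower. Raised were Ddit3 by 1.16, Atf4 by 0.58 and Ppp1r15b, which directs a phosphatase to eIF2, by 0.34 (adjusted p = 0.0014). None of the 4 eIF2 kinase genes passed in the comparisons of Nle1 loss.

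The enzymes that modify eIF5A and eEF2 rose with Apc loss in 3 of 7 on day 1 and 5 of 7 on day 2, led by Dph2 and Dph5 of diphthamide synthesis (0.64 and 0.62 on day 1), and none fell. In the mTOR arm 1 of 8 rose and 1 fell on day 1, with 1 and 2 on day 2; Rps6kb1, a ribosomal protein S6 kinase gene, rose from 55.2 to 69.5 CPM. Of 10 mitochondrial translation factors, Apc loss with Nle1 present raised none, lowered 2 on day 1 and lowered 4 on day 2, among them Mtif3, the mitochondrial initiation factor, from 31.2 to 21.2 CPM on day 2 (-0.56). Between the double knockout and NlecKO 2 rose and 2 fell on day 1, beside 28.2% and 24.4% of all tested genes. On day 2, 2 rose, beside 25.6% higher and 22.2% lower among all tested genes. Mrrf, of the mitochondrial ribosome recycling factor, was higher by 0.28 and 0.27 there (adjusted p = 0.026 and 0.036). With Nle1 loss in Apc-lost crypts 4 of the 10 rose and 1 fell on day 2, beside 19.5% and 15.4% of all tested genes.

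Several members have close copies in the genome, so kallisto may have divided their reads. In a transcript reference (GENCODE M21) 53.6% of the 31-base words of Eif3j also occur in other genes, 38.1% in Gm9781, the copy also known as Eif3j2. Eif3j itself was at means of 24.3 CPM in day 1 Control and 65.2 in ApccKO, while Gm9781 was at 58.3 and 59.7. Summed before the fit, both genes gave 82.6 and 125 CPM and a log2 change of 0.60 ± 0.11 (adjusted p = 1.9e-04), which is 1.51-fold. On day 2 the sum gave 0.62 ± 0.11, or 1.54-fold. The rise after Apc loss thus holds for the pair, but its size for Eif3j alone, 1.42 and 1.48, is uncertain. With Nle1 loss on day 2 the copies rose side by side, Eif3j by 0.45 and Gm9781 by 0.59 ± 0.12 (adjusted p = 0.0031). Other members that share many words were Eif4ebp3 (66.4%), Eef1a1 (51.5%), Eef1g (47.6%) and Eif3d (40.2%). The gene that shares most words with Eef1a1, Gm13456 (33.8%), is among the genes of the deposited counts, as Gm9781 is. Those that share most with Eif4ebp3, Eef1g and Eif3d are not among them. Whether reads of these members were divided thus cannot be looked up in those genes. The pseudogene Eif4a-ps4 ranged from 0.677 to 81.7 CPM, and from 0.677 to 63.5 within day 2 ApccKO.

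**Figure D5:**
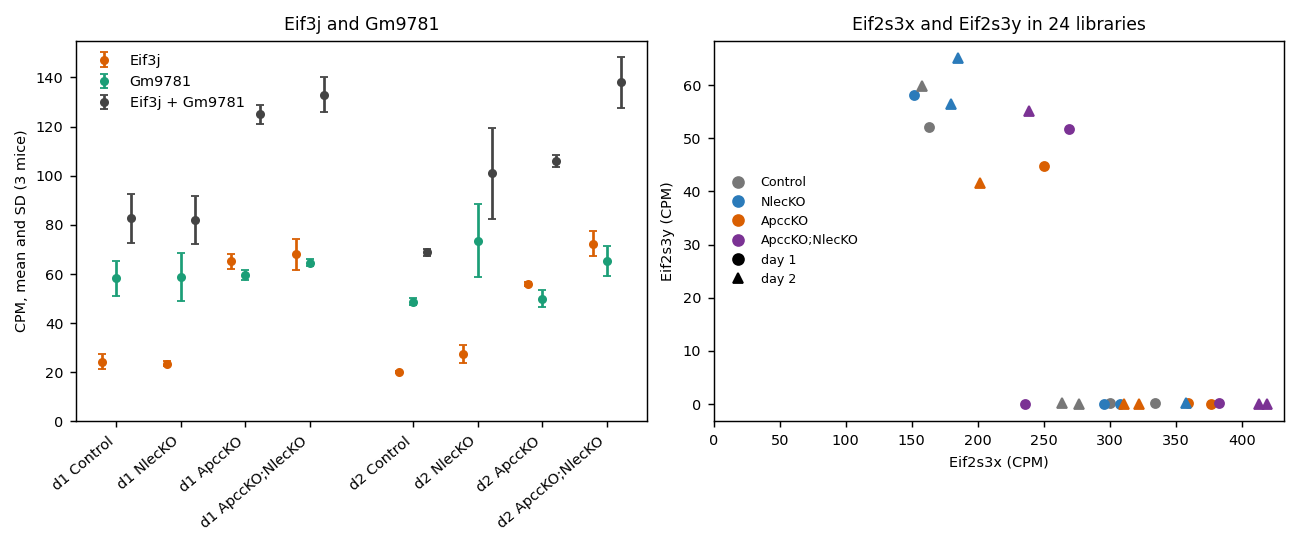
Left, mean CPM with SD (3 mice) of Eif3j, Gm9781 and their sum in the 8 groups; Gm9781 is at 58.3 and 59.7 in day 1 Control and ApccKO while the sum is at 82.6 and 125. Right, Eif2s3x against Eif2s3y in CPM for the 24 libraries; 9 libraries have Eif2s3y at 41.6 to 65.1 and 15 at 0 to 0.274.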

How the data were processed

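Each of the 24 mice gave 1 library. The authors deposited expected counts per gene (estimated counts) and TPM; kallisto 0.43 and the build mm9 are named for them, and DESeq2 and DESeq for normalised values, per the submitters' processing notes. For the annotation release and the step from transcripts to genes, the sources used here give nothing. The normalised values were left aside.

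Rounding of the estimated counts preceded the test in edgeR 4.0.16 (limma 3.58.1, R 4.3.3). The filter of edgeR with a minimum count of 10 kept 16552 genes, TMM scaled the libraries, and the robust quasi-likelihood fit had 1 mean per group over all 24 libraries. P-values were adjusted by Benjamini-Hochberg over all genes tested, at a threshold of 0.05. Printed CPM of members are TMM-scaled, those of marker sums, Gm8730 and Lct are not. The depth of 17.9 to 26.5 M counts and a biological coefficient of variation of 17.6% set the precision. TPM served only to compare levels between genes.

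The members and lists were chosen with earlier results of these data known. In each comparison of 2 groups on a day, up to 8 called members of at least 5 CPM were named by size of change, then the smallest p of each role not yet named; the eIF2 kinases, eIF4E-binding proteins and main factors were always named, up to 5 members in other comparisons, and up to 4 genes of a pathway list by p. Members named to spell out a count, or with a small or no change, were chosen after their values were seen.

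The fit was tested on simulated counts. Alternatives were DESeq2 1.42.0, edgeR with the size factors of DESeq2, a filter of only 1 count, 2 CPM in 3 libraries, a replicate term, only the libraries compared, each library left out, and without the 3 libraries that stood apart; a sex term and the sum of Eif3j and Gm9781 were added after seeing the data. Shared 31-base words came from GENCODE M21.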

Additional observations from a re-analysis of the deposited data

Results flagged for a closer look

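For 2 members a difference between settings passed its own test. The effect of Nle1 loss on Eif2c1, an Argonaute gene, on day 2 differed between Apc-lost and Apc-intact crypts by -0.53 ± 0.13 on the log2 scale (edgeR, adjusted p = 0.027). The effect of Apc loss on Eif2ak3, the eIF2 kinase gene of the endoplasmic reticulum, differed between day 2 and day 1 by 0.47 ± 0.11 (edgeR, adjusted p = 0.044). Each of these calls was lost in most of its leave-one-out fits. That of Eif2ak3 was also lost with DESeq2 size factors, with no filter and with only the libraries compared.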

How the results depend on the processing

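Called members kept their direction under every alternative run. Among single called or named changes, DESeq2 left 297 on their side of the threshold and moved 5, a fit to only the libraries compared left 248 and took away 54, and leave-one-out fits left 1625 and took away 196; the cause was not tested. DESeq2 called 1 member for Nle1 loss on day 1, 3 for the day 2 interaction, 1 each between days in Control, NlecKO and the double knockout, 8 in ApccKO, and for the difference of Nle1 loss between days 5 with Apc intact and 1 with Apc lost. The sex term gave 2 for the day 2 interaction, 1 between days in the double knockout and 5 for Nle1 loss by day with Apc intact. The stricter filter gave 3 for the day 2 interaction, where 64 members remained. Only the libraries compared gave 0 for Nle1 loss on day 2 and 4 for Nle1 loss in Apc-lost crypts on day 1. Without the 3 libraries apart the latter was 0, ApccKO between days 0 and the double knockout 1. Apc loss by day fell from 1 to 0 with DESeq2 size factors, with no filter, with only the libraries compared and without the 3 libraries.

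Leaving out 1 library gave, on day 1, 0 to 3 calls for Nle1 loss, 25 to 42 for Apc loss, 5 to 9 for the double knockout against ApccKO and 43 to 52 against NlecKO. On day 2 the ranges were 9 to 22, 40 to 45, 17 to 25 and 35 to 45. The interactions gave 0 on day 1 and 0 to 2 on day 2. Between days it was 0 to 1 in Control, 0 to 2 in NlecKO, 3 to 6 in ApccKO and 0 to 1 in the double knockout, and for differences by day 0 to 5, 0 to 1 and 0 to 1. Without Eef1a1 the summed TPM were 8824, 8061, 11821 and 12191 on day 1 for Control, NlecKO, ApccKO and the double knockout, and 8537, 8615, 12234 and 12349 on day 2.

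Correlations of same-numbered libraries ran from -0.26 to 0.26, so replicate numbers were not taken as pairs of mice. In every group but day 1 ApccKO, replicate 1 had Ddx3y above 1 CPM, so replicate number and sex are not separate. With the replicate block the counts were 0, 39, 10 and 48 on day 1 and 20, 45, 23 and 44 on day 2, for Nle1 loss, Apc loss and the double knockout against ApccKO and NlecKO. No block count moved by over 1.5 times.

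Members under 5 CPM, such as Eif5a2 and Eif4ebp3, have SEs near 0.28 on the log2 scale for Apc loss. Changes well above the SE could be missed there: on day 1 Eif5a2 at 0.64 and Eif4ebp3 at -0.53 did not pass.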
